A study of Mus musculus with 16 samples.

Results

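Hnf4a, Foxa1, Foxa2, Foxa3, Cebpa, Cebpb, Onecut1, Prox1 and Nr5a2 encode transcription factors that set and hold the identity of the hepatocyte. These 9 genes were taken by name out of the 54532 genes of a table of RNA sequencing of cultured mouse hepatocytes. All 9 were found, and all 9 averaged at least 1 FPKM across the 16 libraries, the floor for testing that 11395 genes reached. FPKM scales the fragments of a gene by its length and by the depth of the library, so that levels of different genes can be set side by side.

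The libraries fall into 5 groups. Hepatocytes were grown with cancer cells lacking Phgdh plus a CXCR2 inhibitor (KO co-culture with the inhibitor, n = 4), with Phgdh wild-type cancer cells plus the inhibitor (WT co-culture with the inhibitor, n = 3), with knockout cancer cells (KO co-culture, n = 3), with wild-type cancer cells (WT co-culture, n = 3), or alone (monoculture, n = 3). Phgdh encodes the enzyme that opens serine synthesis from glucose, and CXCR2 is a receptor for neutrophil-attracting chemokines. The knockout was in the cancer cells, not in the hepatocytes. The labels name mouse hepatocytes as the source of every library and list them as a cell line, while the design text of the series names HY19636 cancer cells as the sequenced material; the labels were followed. No dose, duration, vehicle, culture format or clone number of the knockout is given in the sources used here, and hepatocytes alone with the inhibitor are not among the groups. The labels do not state whether replicates came from separate cultures, so p-values here reflect the spread among libraries, which may be technical.

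In liver the 9 factors form a cross-regulating network. The FOXA proteins are pioneer factors that bind closed chromatin and open liver enhancers. HNF4A, a nuclear receptor, is the central activator of hepatocyte genes for lipoproteins, clotting factors and drug metabolism, and NR5A2 (LRH-1) is a nuclear receptor of bile acid and cholesterol metabolism. C/EBPα drives the metabolic programme of the resting hepatocyte, and C/EBPβ is known for the acute phase response, regeneration and stress. ONECUT1 (HNF6) acts in hepatocyte and bile duct development, and PROX1 is a homeobox protein of hepatoblasts that also acts as a co-repressor of HNF4A and NR5A2.

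The promoters of 4 of the genes that moved with co-culture or the inhibitor are shown. Others that moved, Onecut1 among them, are not shown. Hnf4a is known to use separate upstream and downstream promoters. Each window runs from 250 bases before a transcript start to 50 bases after its first base, from RefSeq on GRCm38.p6. Capitals mark matches, on either strand, to 6 short motifs, namely FOXA (TGTTTAC), HNF4 (CAAAGTCCA), C/EBP (TTGCNNAA), ONECUT (ATTGATT), NR5A2 (CAAGGTCA) and the ATF4 element (TGATGNAAT), none of which overlapped another in these windows.
Hnf4a, upstream start, chr2:163506607-163506906, plus strand: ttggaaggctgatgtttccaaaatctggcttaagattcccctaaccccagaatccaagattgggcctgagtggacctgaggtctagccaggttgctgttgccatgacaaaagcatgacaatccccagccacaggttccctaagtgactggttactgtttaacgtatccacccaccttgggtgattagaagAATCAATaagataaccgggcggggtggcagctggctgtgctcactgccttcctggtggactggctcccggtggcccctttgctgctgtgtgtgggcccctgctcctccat
Hnf4a, downstream start, chr2:163546905-163547204, plus strand: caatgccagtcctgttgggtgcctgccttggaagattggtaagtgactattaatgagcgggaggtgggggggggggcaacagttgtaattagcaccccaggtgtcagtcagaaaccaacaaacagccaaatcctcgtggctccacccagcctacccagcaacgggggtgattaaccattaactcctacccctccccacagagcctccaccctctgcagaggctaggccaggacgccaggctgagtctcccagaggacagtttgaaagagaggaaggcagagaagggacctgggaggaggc
Foxa1, chr12:57546062-57546361, minus strand: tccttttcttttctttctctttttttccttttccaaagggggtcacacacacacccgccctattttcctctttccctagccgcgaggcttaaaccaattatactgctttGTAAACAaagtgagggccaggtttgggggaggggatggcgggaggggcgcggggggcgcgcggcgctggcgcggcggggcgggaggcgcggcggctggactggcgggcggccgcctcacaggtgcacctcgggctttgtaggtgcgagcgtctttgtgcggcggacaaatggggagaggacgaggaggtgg
Cebpa, chr7:35119043-35119342, plus strand: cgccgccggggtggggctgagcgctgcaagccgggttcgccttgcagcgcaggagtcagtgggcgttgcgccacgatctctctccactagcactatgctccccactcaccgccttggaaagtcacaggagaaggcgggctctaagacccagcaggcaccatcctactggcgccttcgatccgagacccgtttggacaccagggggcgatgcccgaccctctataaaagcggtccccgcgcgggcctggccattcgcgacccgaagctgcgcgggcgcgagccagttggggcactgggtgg
Nr5a2, downstream start, chr1:136953581-136953880, minus strand: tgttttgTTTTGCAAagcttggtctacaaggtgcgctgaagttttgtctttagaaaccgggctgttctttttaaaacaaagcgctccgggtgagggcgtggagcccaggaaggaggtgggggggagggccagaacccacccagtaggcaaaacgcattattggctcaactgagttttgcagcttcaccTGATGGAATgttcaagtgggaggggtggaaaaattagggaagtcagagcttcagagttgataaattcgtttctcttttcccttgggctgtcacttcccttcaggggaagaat
The upstream Hnf4a window held a reverse ONECUT match, AATCAAT, at base -60 from the start, and the downstream one held no match. The Foxa1 window held a reverse FOXA match, GTAAACA, at base -141. The downstream Nr5a2 window held a C/EBP match, TTTTGCAA, at base -243 and an ATF4 match, TGATGGAAT, at base -62. The upstream Nr5a2 window, not printed, held no match. The Cebpa window held none. Among 32851 promoter windows of the same length, 2.86% held the ONECUT motif, 3.65% FOXA, 10.8% C/EBP, 0.965% ATF4, 1.56% NR5A2 and 0.475% HNF4. Of the 14 windows of the 9 genes, 1 more held a match, an ONECUT motif 213 bases before the outermost start of Foxa2. A match is a stretch of letters and not a measured binding site.

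Recovered fragments ran from 15.002 to 21.3 M per library, so that 1 fragment in a gene of 1 kb was worth 0.0457 to 0.0648 FPKM. Mitochondrially encoded genes took 1.88% to 2.09% of recovered fragments in KO co-culture with the inhibitor and 1.86% to 2.11% in WT co-culture with it, against 3.25% to 3.80% in KO co-culture, 3.49% to 4.57% in WT co-culture and 3.41% to 3.79% in monoculture. WT co-culture replicate 1 stood apart from the other WT co-culture libraries (chi-square per degree of freedom of fragment counts 18.8 and 22.5, against 2.61 to 8.91 for all other pairs within a group). Calls that change without it are given both ways. The sign also turned without it in 2 uncalled results, Cebpb between KO and WT co-culture (0.06 with all libraries and -0.0977 without it) and Nr5a2 in the difference of inhibitor effects (0.00761 and -0.0141). Of 17 hepatocyte markers found, 14 reached 1 FPKM in some library, and Asgr1, Asgr2 and Cyp2e1 did not. The summed hepatocyte markers were 1015 to 1076 FPKM in KO co-culture with the inhibitor, 770 to 789 FPKM in WT co-culture with it, 110 to 116 FPKM in KO co-culture, 74.8 to 84.1 FPKM in WT co-culture and 207 to 215 FPKM in monoculture. Alb, which encodes serum albumin, averaged 461 ± 9.61, 335 ± 10.3, 27.8 ± 0.671, 24.3 ± 2.56 and 57.1 ± 1.81 FPKM in the same groups and order, where ± is the SD. Of 8 bile duct markers, Spp1, Cd24a, Krt19 and Sox9 were among those expressed, and the list summed to 767 to 817, 774 to 787, 576 to 593, 545 to 583 and 1483 to 1504 FPKM in those groups. Of 10 markers of pancreatic epithelium, 8 stayed under 1 FPKM in every library and 4 of them (Ptf1a, Nkx6-1, Tff1 and Agr2) were listed at 0. The list summed to 370 to 387, 406 to 431, 180 to 191, 194 to 213 and 200 to 212 FPKM in the same order, nearly all of it Msln. Stellate, endothelial and neutrophil markers all stayed under 1 FPKM, and of the macrophage markers Cd68 alone reached it. The part of these marker lists in the results below was not tested, and in bulk RNA fewer cells of a type and less RNA per cell cannot be told apart.

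Differences between groups were tested with limma on log2(FPKM + 1) in a single fit over all 16 libraries, with two-sided p-values adjusted by the Benjamini-Hochberg method over the 11395 genes. A gene is said to have risen, fallen or changed where the adjusted p was under 0.05. Below, ± is the SD for an FPKM mean and the SE for a log2 fold change, and comparisons that share a group share its libraries.

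With the inhibitor no member fell. Between KO co-culture with the inhibitor and KO co-culture, 7 of the 9 rose, none fell and 2 did not pass the test, while 69.5% of all genes changed, 34.8% upwards and 34.7% downwards. Between WT co-culture with the inhibitor and WT co-culture, 5 rose, none fell and 4 did not pass, against 66.6% of all genes changed, 33.5% higher and 33% lower. The median log2 fold change of the 9 was 0.79 in the knockout pair and 0.46 in the wild-type pair, beside -0.01 over all genes in both. Hnf4a, Foxa1, Cebpa, Onecut1 and Nr5a2 rose in both pairs, and Foxa3 and Prox1 passed the test in the knockout pair alone. Foxa2 and Cebpb passed it in neither. With each library rescaled without mitochondrial and the 50 top genes, the inhibitor calls numbered 8 in the knockout pair, where Foxa2 joined at 0.13 (limma, adjusted p = 0.0425), and 5 in the wild-type pair.

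Without the inhibitor most of the calls against monoculture were falls. Against monoculture, 1 of the 9 rose and 5 fell in WT co-culture, where 62% of all genes changed, 30.1% higher and 31.9% lower. KO co-culture gave the same numbers, 1 higher and 5 lower, beside 61.5% of all genes changed, 30.3% higher and 31.2% lower. The total of 6 of 9 changed lay near the share of all genes in both. Cebpa was the gene that rose in each, and Foxa1, Foxa3, Cebpb and Onecut1 fell in each. Nr5a2 passed the test in WT co-culture alone and Hnf4a in KO co-culture alone. The median log2 fold change of the 9 was -0.37 in WT co-culture and -0.18 in KO co-culture, beside 0.01 over all genes in both.

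**Figure D1:**
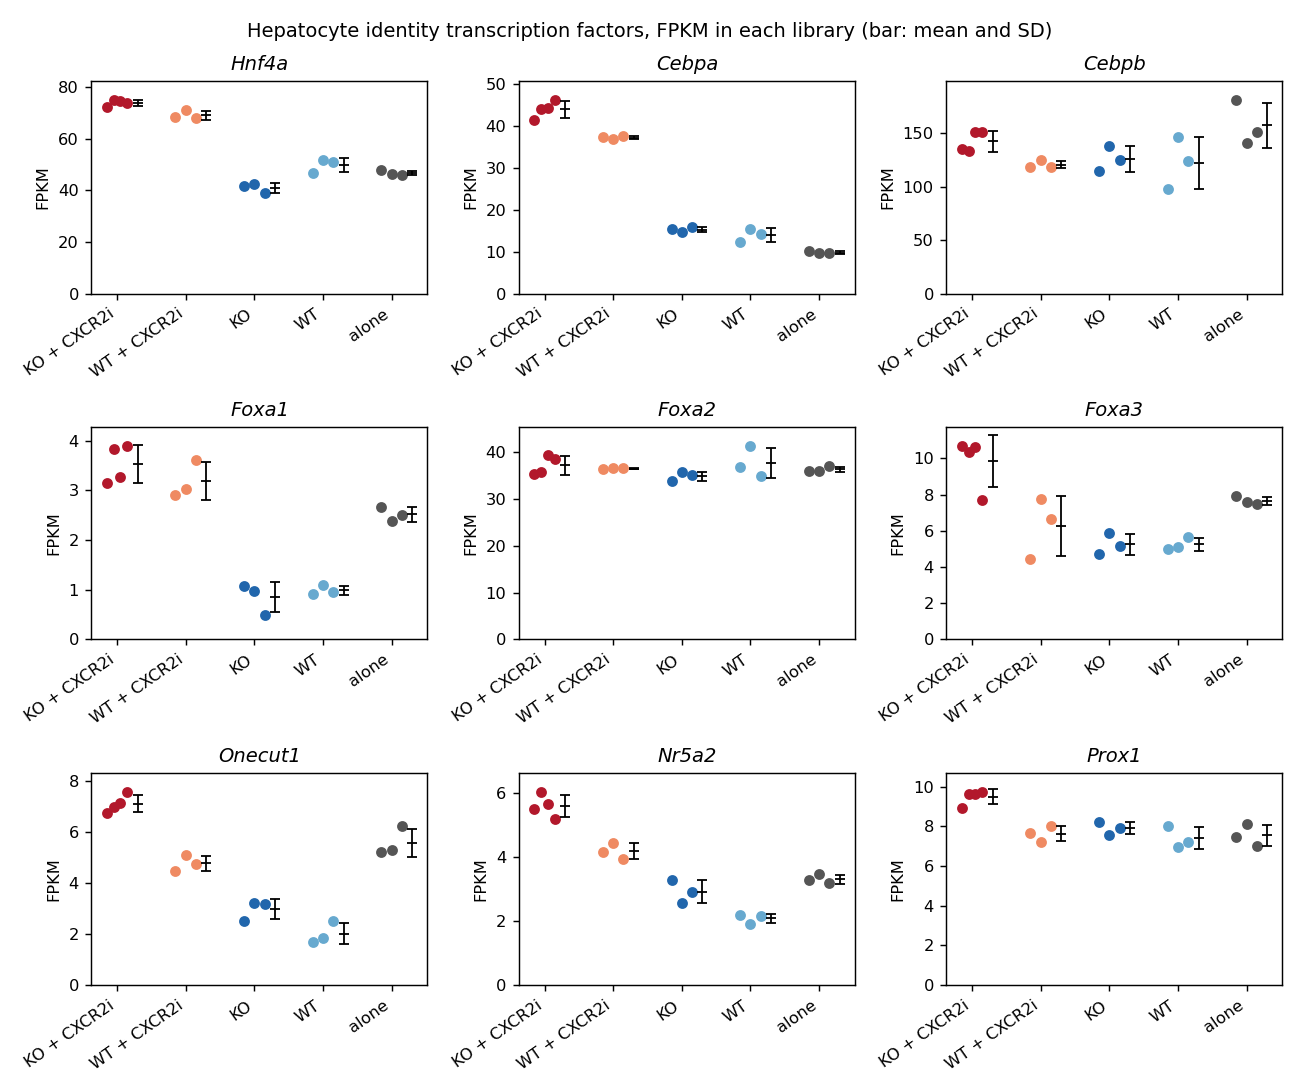
FPKM of each of the 9 genes (vertical axes, linear, from 0) in each of 16 libraries, with groups from left to right KO co-culture with the CXCR2 inhibitor, WT co-culture with it, KO co-culture, WT co-culture and monoculture; points are libraries and the black bars beside them give the mean and SD. Cebpa stood at 36.8 to 46.1 FPKM in the 7 inhibitor libraries, against 9.58 to 15.8 FPKM in the other 9, while Foxa2 stayed between 33.8 and 41.3 FPKM in all 16.

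Hnf4a (ENSMUSG00000017950, chromosome 2, 163506808 to 163572910, plus strand) was the second most abundant of the 9 in every group. It was read at 72.1, 74.8, 74.4 and 73.8 FPKM in KO co-culture with the inhibitor, at 68.3, 71.1 and 67.9 FPKM in WT co-culture with it, at 41.7, 42.5 and 38.8 FPKM in KO co-culture, at 46.7, 51.8 and 51.0 FPKM in WT co-culture and at 47.7, 46.4 and 45.9 FPKM in monoculture. All 7 inhibitor libraries lay above all 9 others, and KO co-culture lay lowest without overlap. Hnf4a rose by 0.83 ± 0.04 on the log2 scale with the inhibitor in KO co-culture (adjusted p = 1.47e-10) and by 0.46 ± 0.04 in WT co-culture (adjusted p = 2.57e-07), which are ratios of group means of 1.80 and 1.39. The difference between both inhibitor effects, KO minus WT, was 0.37 ± 0.06 (adjusted p = 0.0103), the single call among the 9 genes, where 0.816% of all genes were called, 0.535% positive and 0.281% negative. The share of positive calls over all genes in this contrast was 65.6%, against 77.3% after the rescaling without mitochondrial and top genes.

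That difference in Hnf4a came with a lower level in KO co-culture than in WT co-culture without the inhibitor (-0.27 ± 0.04, adjusted p = 0.00322), while with the inhibitor the KO and WT co-cultures differed by 0.09 ± 0.04 (adjusted p = 0.362). Against monoculture Hnf4a fell in KO co-culture (-0.18 ± 0.04, adjusted p = 0.00214) and differed by 0.09 in WT co-culture, with an adjusted p of 0.08 and a 95% interval from -0.00 to 0.18. Without WT co-culture replicate 1 that difference passed the test at 0.14 (adjusted p = 0.00763), and it also passed after quantile normalization (0.19, adjusted p = 5.97e-04) and after rescaling (0.16, adjusted p = 0.00113). The KO against WT difference was -0.32 without that library (adjusted p = 6.99e-04), and the difference of inhibitor effects was then 0.41 (adjusted p = 0.00186). Both co-cultures with the inhibitor lay above monoculture, by 0.65 ± 0.04 for KO (adjusted p = 2.68e-09) and 0.56 ± 0.04 for WT (adjusted p = 3.83e-08).

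Nr5a2 (ENSMUSG00000026398, chromosome 1, 136842571 to 136960448, minus strand), the second nuclear receptor, was far less abundant than Hnf4a. Its libraries held 5.49, 6.03, 5.64 and 5.19 FPKM in KO co-culture with the inhibitor, 4.16, 4.43 and 3.93 FPKM in WT co-culture with it, 3.28, 2.55 and 2.91 FPKM in KO co-culture, 2.18, 1.92 and 2.16 FPKM in WT co-culture and 3.29, 3.45 and 3.18 FPKM in monoculture. The WT co-culture libraries were the lowest of all and the KO co-culture libraries with the inhibitor the highest, and the KO co-culture and monoculture overlapped. Nr5a2 rose by 0.75 ± 0.07 with the inhibitor in KO co-culture (adjusted p = 1.21e-07) and by 0.75 ± 0.07 in WT co-culture (adjusted p = 3.17e-07). It fell by 0.48 on the log2 scale in WT co-culture against monoculture (adjusted p = 3.47e-05), and the KO co-culture difference of -0.14 missed the test (adjusted p = 0.0978). Without KO co-culture replicate 1, its highest library, that difference was -0.21 (adjusted p = 0.0232).

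Onecut1 (ENSMUSG00000043013, chromosome 9, 74861921 to 74891781, plus strand) showed the largest fall of the 9 in WT co-culture against monoculture. The libraries held 6.75, 6.95, 7.13 and 7.55 FPKM in KO co-culture with the inhibitor, 4.47, 5.07 and 4.76 FPKM in WT co-culture with it, 2.52, 3.20 and 3.19 FPKM in KO co-culture, 1.69, 1.86 and 2.49 FPKM in WT co-culture and 5.22, 5.29 and 6.21 FPKM in monoculture. No group overlapped another. Against monoculture Onecut1 fell by 1.13 on the log2 scale in WT co-culture (SE 0.10, adjusted p = 1.2e-07) and by 0.73 in KO co-culture (SE 0.10, adjusted p = 1.32e-05). With the inhibitor it rose by 1.03 ± 0.09 in KO co-culture (adjusted p = 1.21e-07) and by 0.94 ± 0.10 in WT co-culture (adjusted p = 7.61e-07). The KO co-culture with the inhibitor lay above monoculture (0.30 ± 0.09, adjusted p = 0.00842), while the WT co-culture with it differed from monoculture by -0.19 ± 0.10 (adjusted p = 0.103), which passed after quantile normalization (-0.25, adjusted p = 0.0388).

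Among the FOXA factors, Foxa1 changed in both co-cultures and Foxa2 did not pass the test in any comparison. Foxa1 (ENSMUSG00000035451, chromosome 12, 57540628 to 57546916, minus strand) was the least abundant of the 9 in every group, with 30 to 255 fragments per library. It stood at 3.15, 3.84, 3.27 and 3.89 FPKM in KO co-culture with the inhibitor, 2.91, 3.02 and 3.62 FPKM in WT co-culture with it, 1.08, 0.968 and 0.499 FPKM in KO co-culture, 0.915, 1.09 and 0.947 FPKM in WT co-culture and 2.66, 2.37 and 2.51 FPKM in monoculture. The 6 co-culture libraries without the inhibitor lay between 0.499 and 1.09 FPKM, and all others between 2.37 and 3.89 FPKM. Foxa1 rose by 1.30 ± 0.10 with the inhibitor in KO co-culture (adjusted p = 4.48e-08) and by 1.07 ± 0.11 in WT co-culture (adjusted p = 9.09e-07), and the group means stood 4.16 and 3.23 times as high. Against monoculture it fell by 0.94 on the log2 scale in KO co-culture (adjusted p = 4.33e-06) and by 0.82 in WT co-culture (adjusted p = 1.61e-05), to 0.338 and 0.392 of the monoculture mean. Since a pseudocount of 1 shrinks changes at this level, the same 4 log2 fold changes with a pseudocount of 0.1 were 1.99, 1.59, -1.52 and -1.27, all past the threshold. Foxa1 in KO co-culture with the inhibitor was above monoculture (0.36 ± 0.10, adjusted p = 0.00655), and in WT co-culture with the inhibitor the difference of 0.25 ± 0.11 missed the test (adjusted p = 0.0652). That difference passed after rescaling (0.32, adjusted p = 0.0229) and in a fit of these groups alone (adjusted p = 0.0339).

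Foxa2 (ENSMUSG00000037025, chromosome 2, 148042877 to 148046969, minus strand) held 35.4 to 39.4 FPKM in KO co-culture with the inhibitor, 36.4 to 36.7 FPKM in WT co-culture with it, 33.8 to 35.7 FPKM in KO co-culture, 34.8 to 41.3 FPKM in WT co-culture and 36.0 to 37.0 FPKM in monoculture. In the 8 comparisons of 2 groups its ratio of means lay between 0.926 and 1.07. The 95% intervals for the inhibitor effects ran from -0.02 to 0.20 on the log2 scale in KO co-culture and from -0.16 to 0.08 in WT co-culture. Foxa3 (ENSMUSG00000040891, chromosome 7, 19013284 to 19023538, minus strand) spread widely between replicates with the inhibitor. It was read at 10.7, 10.4, 10.7 and 7.72 FPKM in KO co-culture with the inhibitor, 4.47, 7.73 and 6.65 FPKM in WT co-culture with it, 4.72, 5.88 and 5.16 FPKM in KO co-culture, 4.97, 5.13 and 5.65 FPKM in WT co-culture and 7.90, 7.57 and 7.47 FPKM in monoculture. Foxa3 fell by 0.47 on the log2 scale against monoculture in both KO co-culture (adjusted p = 0.0116) and WT co-culture (adjusted p = 0.0115), without overlap. It rose by 0.79 ± 0.14 with the inhibitor in KO co-culture (adjusted p = 1.23e-04), while the WT co-culture difference was 0.20 ± 0.15 (adjusted p = 0.25). The difference between these effects was 0.59 ± 0.20 and did not pass the test (adjusted p = 0.249). Without WT inhibitor replicate 1, the lowest library of all, the wild-type inhibitor difference passed at 0.39 (adjusted p = 0.01135). Against monoculture, WT co-culture with the inhibitor differed by -0.27 (adjusted p = 0.11), which passed at -0.42 without its replicate 2 (adjusted p = 0.0203), and KO co-culture with the inhibitor differed by 0.32 (adjusted p = 0.0504), which passed at 0.42 without its replicate 4 (adjusted p = 0.01045). The KO difference also passed after rescaling (0.40, adjusted p = 0.013), under voom (0.37, adjusted p = 0.0207) and in a fit of these groups alone (adjusted p = 0.0223).

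Within the FOXA family, Foxa2 held most of the summed FPKM throughout. Its share averaged 73.6% ± 2.46 in KO co-culture with the inhibitor, 79.5% ± 3.17 in WT co-culture with it, 85.1% ± 1.13 in KO co-culture, 85.8% ± 1.48 in WT co-culture and 78.2% ± 0.718 in monoculture (SD, n = 4 in the first and 3 in the others). The Foxa1 share ran from 6.13% to 7.74% in KO co-culture with the inhibitor and from 6.38% to 7.72% in WT co-culture with it, against 1.22% to 2.73% in KO co-culture and 2.13% to 2.30% in WT co-culture. It was 5.17% to 5.70% in monoculture, above both co-cultures without the inhibitor and below every inhibitor library. These shares are ratios within a library, so they do not depend on the scaling between libraries, and the Foxa1 share rests on few fragments.

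Cebpa rose with the inhibitor and Cebpb did not pass that test. Cebpa (ENSMUSG00000034957, chromosome 7, 35119293 to 35121928, plus strand) stood at 41.4, 44.0, 44.2 and 46.1 FPKM in KO co-culture with the inhibitor, 37.3, 36.8 and 37.5 FPKM in WT co-culture with it, 15.3, 14.7 and 15.8 FPKM in KO co-culture, 12.3, 15.5 and 14.2 FPKM in WT co-culture and 10.1, 9.58 and 9.59 FPKM in monoculture. Monoculture was lowest and the inhibitor groups highest, with the KO and WT co-cultures overlapping between them. Cebpa was the one member that rose both in co-culture against monoculture and with the inhibitor. Its log2 fold change with the inhibitor was 1.47 ± 0.06 in KO co-culture (adjusted p = 1.81e-11) and 1.35 ± 0.06 in WT co-culture (adjusted p = 1.1e-10), or 2.88 and 2.66 times the mean. Against monoculture it was 0.60 ± 0.06 in KO co-culture (adjusted p = 1.24e-06) and 0.48 ± 0.06 in WT co-culture (adjusted p = 1.28e-05). The co-cultures with the inhibitor stood 4.50 (KO) and 3.81 (WT) times above monoculture in mean FPKM.

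Cebpb (ENSMUSG00000056501, chromosome 2, 167688915 to 167690418, plus strand), the most abundant of the 9 in every group, did not pass the test for the inhibitor. It held 135, 133, 151 and 151 FPKM in KO co-culture with the inhibitor, 118, 125 and 119 FPKM in WT co-culture with it, 114, 138 and 125 FPKM in KO co-culture, 97.5, 146 and 124 FPKM in WT co-culture and 181, 140 and 151 FPKM in monoculture. WT co-culture replicate 1 was the lowest of the 16 and monoculture replicate 1 the highest. The inhibitor differences were 0.18 in KO co-culture, with a 95% interval from -0.07 to 0.43 (adjusted p = 0.183), and 0.00 in WT co-culture, with an interval from -0.27 to 0.26 (adjusted p = 0.983). Cebpb fell by 0.31 on the log2 scale in KO co-culture (SE 0.12, adjusted p = 0.0396) and by 0.37 in WT co-culture (SE 0.12, adjusted p = 0.018) against monoculture, and WT co-culture with the inhibitor lay 0.37 lower as well (adjusted p = 0.016). These 3 calls were the weakest against monoculture. The WT call was lost without WT co-culture replicate 1 (-0.22, adjusted p = 0.0919), without monoculture replicate 1 (-0.27, adjusted p = 0.0923), after quantile normalization (adjusted p = 0.09) and in a fit of these 2 groups alone (adjusted p = 0.0872). The KO call was lost without monoculture replicate 1 (-0.21, adjusted p = 0.177) or 3 (-0.34, adjusted p = 0.057), without KO co-culture replicate 1 (-0.25, adjusted p = 0.142) or 3 (-0.31, adjusted p = 0.0791), and under quantile normalization (adjusted p = 0.137), rescaling (adjusted p = 0.0527) or no filter on low values (adjusted p = 0.0953). The call for the WT co-culture with the inhibitor was lost without monoculture replicate 1 (-0.27, adjusted p = 0.0833) and after quantile normalization (-0.23, adjusted p = 0.0901).

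The balance of both transcripts was also measured within each library. Cebpa made up 22.7% to 24.9% of the summed Cebpa and Cebpb FPKM in KO co-culture with the inhibitor, 22.8% to 24.0% in WT co-culture with it, 9.63% to 11.8% in KO co-culture, 9.60% to 11.2% in WT co-culture and 5.30% to 6.39% in monoculture. Cebpb exceeded Cebpa by an average factor of 3.24 in both inhibitor groups, of 8.26 in KO co-culture, of 8.68 in WT co-culture and of 16.1 in monoculture. The KO and WT co-cultures overlapped in this share at either inhibitor state, and no other pair of groups overlapped. Each gene shares bases with a gene on the opposite strand, and whether counting used strand is not given in the sources used here. Gm45091 overlaps Cebpa by 313 bases and averaged 2.52 FPKM, and its inhibitor differences were -0.23 in KO co-culture (adjusted p = 0.497) and -0.35 in WT co-culture (adjusted p = 0.337). Against monoculture Gm45091 rose by 0.80 in KO co-culture (adjusted p = 0.0397) and differed by 0.74 in WT co-culture (adjusted p = 0.0536), the same direction as Cebpa, and its part in the Cebpa values was not tested. Tmem189 overlaps Cebpb by 908 bases and averaged 5.02 FPKM, and it rose with the inhibitor by 0.54 in KO co-culture (adjusted p = 2.09e-04) and by 0.46 in WT co-culture (adjusted p = 0.00145). The part of Tmem189 in the Cebpb values was not tested either.

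**Figure D2:**
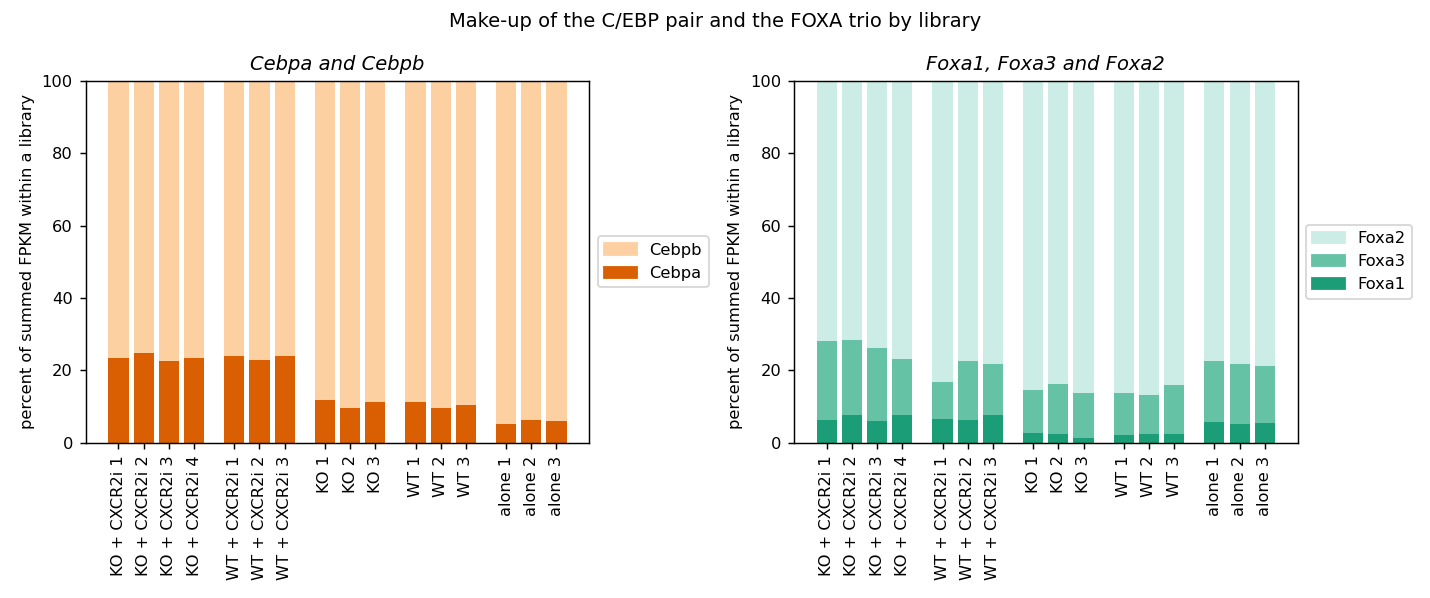
Stacked bars, 1 per library, of the percent of summed FPKM held by Cebpa and Cebpb (left panel) and by Foxa1, Foxa3 and Foxa2 (right panel), with KO co-culture with the inhibitor at the left and monoculture (alone) at the right of each panel. Cebpa made up 22.7% to 24.9% in the 7 inhibitor libraries, against 5.30% to 11.8% in the others.

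Prox1 (ENSMUSG00000010175, chromosome 1, 190118035 to 190170714, minus strand) rose in a single group. It was read at 8.92, 9.65, 9.64 and 9.73 FPKM in KO co-culture with the inhibitor, 7.67, 7.23 and 8.01 FPKM in WT co-culture with it, 8.21, 7.59 and 7.93 FPKM in KO co-culture, 8.03, 6.97 and 7.21 FPKM in WT co-culture and 7.45, 8.13 and 7.03 FPKM in monoculture. The 4 libraries of KO co-culture with the inhibitor lay above the other 12, which overlapped. The rise was 0.23 ± 0.06 against KO co-culture (adjusted p = 0.00192) and 0.30 ± 0.06 against monoculture (adjusted p = 2.8e-04). In WT co-culture the inhibitor difference was 0.04 ± 0.06, with a 95% interval from -0.09 to 0.17 (adjusted p = 0.571), and the difference between both inhibitor effects was 0.19 ± 0.08 (adjusted p = 0.396).

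**Figure D3:**
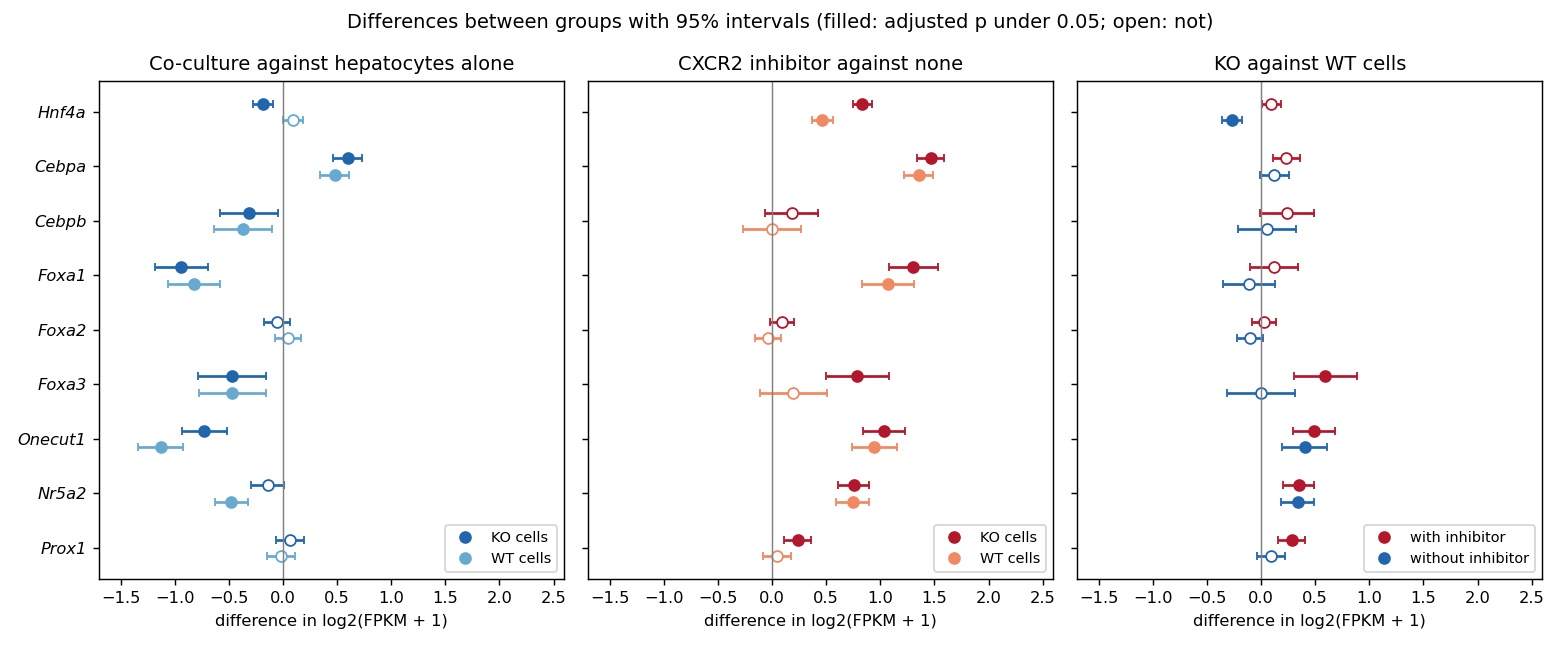
Differences in log2(FPKM + 1) with 95% intervals for the 9 genes (rows), for each co-culture against monoculture (left), the inhibitor against none in each co-culture (middle) and KO against WT co-culture with and without the inhibitor (right); filled points passed an adjusted p of 0.05 and open points did not. The Cebpa points lie right of 0 in the left and middle panels, and the Foxa2 intervals cross 0 in all 6 comparisons shown.

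The loss of Phgdh in the cancer cells went with small differences. Between KO and WT co-culture, Onecut1 (0.40 ± 0.10, adjusted p = 0.0413) and Nr5a2 (0.34 ± 0.07, adjusted p = 0.0191) rose and Hnf4a fell, so that 3 of the 9 were called where 2.99% of all genes were, 1.65% higher and 1.34% lower. Over all genes 55.1% of these calls were higher, against 43.3% after rescaling without mitochondrial and top genes and 41.2% in a fit of the 6 libraries alone. None of the 3 calls held in that fit, which called 17 genes, where the fit of all libraries called 341 (adjusted p = 0.24 for Hnf4a, 0.369 for Onecut1 and 0.291 for Nr5a2). The Onecut1 call was also lost without WT co-culture replicate 1 (0.32, adjusted p = 0.105) or 2 (0.37, adjusted p = 0.119), without KO co-culture replicate 2 (0.36, adjusted p = 0.148) or 3 (0.36, adjusted p = 0.1485), and under quantile normalization (adjusted p = 0.0531), no filter (adjusted p = 0.1035) and voom on recovered fragments (adjusted p = 0.0586). The Nr5a2 call was lost without WT co-culture replicate 2 (0.30, adjusted p = 0.0718) and without KO co-culture replicate 1 (0.27, adjusted p = 0.0874) or 3 (0.34, adjusted p = 0.0663).

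Under the inhibitor, KO and WT co-cultures differed in Onecut1 (0.49 ± 0.09, adjusted p = 0.0105), Nr5a2 (0.35 ± 0.07, adjusted p = 0.0132), Prox1 (0.28 ± 0.06, adjusted p = 0.0158) and Foxa3 (0.59 ± 0.14, adjusted p = 0.0355), all higher in KO. These are 4 of 9, where 2.31% of all genes were called, 1.66% higher and 0.649% lower. In Onecut1, Nr5a2 and Prox1 the groups did not overlap, and in Foxa3 they did. Cebpa was higher in KO without overlap but missed the test (0.23 ± 0.06, adjusted p = 0.0586), and it passed under voom (adjusted p = 0.0127), rescaling (adjusted p = 0.0472) and a fit of these 2 groups (adjusted p = 0.0273). Each of the 4 calls was lost without at least 1 library. Without WT inhibitor replicate 1 all 4 were lost, at 0.45 for Onecut1 (adjusted p = 0.062), 0.35 for Nr5a2 (adjusted p = 0.0546), 0.28 for Prox1 (adjusted p = 0.065) and 0.40 for Foxa3 (adjusted p = 0.14). Without WT inhibitor replicate 3, Nr5a2 (0.31, adjusted p = 0.0773) and Foxa3 (0.64, adjusted p = 0.0834) were lost, and without WT inhibitor replicate 2, Prox1 (0.25, adjusted p = 0.084). Leaving out KO inhibitor replicate 2 or 3 ended the calls of Prox1 (adjusted p = 0.0516 and 0.0506) and Foxa3 (adjusted p = 0.101 and 0.1005), and leaving out KO inhibitor replicate 1 that of Foxa3 (adjusted p = 0.108). Foxa3 was also lost without the filter on low values (adjusted p = 0.0864) and in a fit of these 2 groups (adjusted p = 0.145).

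Set directly against monoculture, the inhibitor groups held more higher than lower members. In KO co-culture with the inhibitor 6 of the 9 were higher and none lower, with 69.4% of all genes changed, 33.3% higher and 36.1% lower. In WT co-culture with the inhibitor 3 were higher and 1 lower, with 66.8% of all genes changed, 32.1% higher and 34.7% lower. The total of 6 of 9 changed in the KO group lay near the share of all genes changed. The 3 of 9 higher in the WT group lay near the share of all genes higher. Hnf4a, Cebpa and Nr5a2 were higher in both, Nr5a2 by 0.61 ± 0.07 in the KO group (adjusted p = 1.15e-06) and 0.26 ± 0.07 in the WT group (adjusted p = 0.00434). Foxa1, Onecut1 and Prox1 passed the test in the KO group alone, and Cebpb was lower in the WT group alone.

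The order of levels changed at few places. Cebpb and Hnf4a led and Foxa1 came last in every group. With the inhibitor Cebpa (43.95 ± 1.94 FPKM in KO and 37.2 ± 0.336 FPKM in WT co-culture) stood above Foxa2 (37.3 ± 2.04 and 36.5 ± 0.156 FPKM), without overlap in either group. Without the inhibitor Cebpa (15.3 ± 0.530 FPKM in KO co-culture, 14.0 ± 1.62 FPKM in WT co-culture and 9.76 ± 0.301 FPKM in monoculture) stood below Foxa2. Neighbours whose libraries overlapped were Foxa3 and Prox1 in KO co-culture with the inhibitor, Prox1 and Foxa3 as well as Foxa3 and Onecut1 in WT co-culture with it, Onecut1 and Nr5a2 in the KO and WT co-cultures, and Foxa3 and Prox1 in monoculture.

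Other liver transcription factors were followed as a list of 20 genes, of which 18 were tested. With the inhibitor 13 rose and 2 fell in KO co-culture and as many did in WT co-culture, with list medians of 0.32 and 0.39 on the log2 scale, beside -0.01 over all genes. Nr0b2 and Creb3l3 reached the floor for testing through the inhibitor groups alone, so those 2 had to differ, and without them 11 of 16 rose and 2 fell in each pair. Over all genes 69.5% changed in the KO pair, 34.8% higher and 34.7% lower, and 66.6% in the WT pair, 33.5% higher and 33% lower. Mlxipl, the carbohydrate-response factor ChREBP, averaged 11.7 ± 0.469 FPKM in KO co-culture with the inhibitor, 9.38 ± 0.352 FPKM in WT co-culture with it, 0.984 ± 0.188 FPKM in KO co-culture, 1.09 ± 0.0528 FPKM in WT co-culture and 2.44 ± 0.0226 FPKM in monoculture. Nr1h4, the bile acid receptor FXR, averaged 64.1 ± 1.62, 52.6 ± 2.26, 15.1 ± 0.332, 12.97 ± 0.718 and 37.0 ± 0.845 FPKM in the same groups. Both thus followed the course of Foxa1 and Onecut1, lowest in the co-cultures without the inhibitor. Against monoculture 9 of the 18 rose and 5 fell in KO co-culture, and 8 rose and 5 fell in WT co-culture. Over all genes 30.3% rose and 31.2% fell in KO co-culture, and 30.1% rose and 31.9% fell in WT co-culture. Among the listed genes that rose were Atf5 (1.65 in KO and 1.61 in WT co-culture) and Klf15 (1.70 and 1.52). Between KO and WT co-culture 1 of 18 was called, Nr1h4 at 0.21 ± 0.04, where 2.99% of all genes were called.

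Of 5 other C/EBP genes 4 were tested. With the inhibitor 1 rose and 3 fell in KO co-culture, and none rose and 3 fell in WT co-culture. Over all genes 34.8% rose and 34.7% fell in the KO pair, and 33.5% rose and 33% fell in the WT pair. Against monoculture 2 rose and 1 fell in KO co-culture, and 3 rose and 1 fell in WT co-culture. There 30.3% of all genes rose and 31.2% fell in KO co-culture, and 30.1% rose and 31.9% fell in WT co-culture. Ddit3, the stress-induced member CHOP, averaged 42.8 ± 1.81 FPKM in KO co-culture with the inhibitor, 41.4 ± 0.281 FPKM in WT co-culture with it, 64.3 ± 3.30 FPKM in KO co-culture, 64.8 ± 5.48 FPKM in WT co-culture and 12.9 ± 1.497 FPKM in monoculture. Its log2 fold change against monoculture was 2.23 ± 0.07 in KO co-culture and 2.24 ± 0.07 in WT co-culture, and with the inhibitor it fell in both pairs (-0.57 in KO and -0.63 in WT co-culture). Cebpg took the same course, with 0.99 and 0.89 against monoculture and -0.26 and -0.22 with the inhibitor. Cebpd fell in both contrasts, by 0.61 and 0.70 against monoculture and by 0.46 and 0.55 with the inhibitor, in KO and WT co-culture in that order each time.

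Known targets of the factors were counted from lists that share genes, namely Alb, Apoa1, Ttr and Tat. Tested targets that averaged under 1 FPKM over the 9 libraries without the inhibitor (Mttp, Fabp1, Tat, Orm1, Cps1 and Nr0b2) are left out of the counts here. For Fabp1, Tat, Orm1, Cps1 and Nr0b2 the inhibitor groups stood higher, so that a rise was favoured by the filter. Mttp averaged 1.07 and 1.08 FPKM in KO and WT co-culture with the inhibitor, 1.14 and 1.04 FPKM without it and 0.757 FPKM in monoculture. With all 7 tested HNF4A targets counted, 6 rose in KO co-culture and 5 in WT co-culture with the inhibitor, and none fell. The counts stand beside 34.8% of all genes higher and 34.7% lower with the inhibitor in KO co-culture, and 33.5% higher and 33% lower in WT co-culture. Of 16 HNF4A targets 4 remained, of which 4 rose in KO co-culture and 3 in WT co-culture with the inhibitor, and 1 rose and 3 fell against monoculture in each co-culture. Apoa1, the main protein of HDL, was at 93.4 ± 7.84 FPKM in KO co-culture with the inhibitor, 62.5 ± 3.24 FPKM in WT co-culture with it, 0.597 ± 0.225 FPKM in KO co-culture, 0.494 ± 0.305 FPKM in WT co-culture and 3.12 ± 1.11 FPKM in monoculture. Of 9 listed FOXA targets 8 were found by symbol and 4 remained, all of which rose with the inhibitor in both pairs, while against monoculture 1 (Igfbp1) rose and 3 fell in each co-culture. Of 13 C/EBP targets 5 remained. Of these, 3 rose and 1 fell with the inhibitor in KO co-culture, 4 rose and 1 fell in WT co-culture, and 5 fell against monoculture in each co-culture, where 31.2% (KO) and 31.9% (WT) of all genes fell. Hp, the acute phase protein haptoglobin, was at 54.1 ± 3.43 FPKM in KO co-culture with the inhibitor, 35.7 ± 1.30 FPKM in WT co-culture with it, 2.08 ± 0.366 FPKM in KO co-culture, 1.88 ± 0.653 FPKM in WT co-culture and 44.9 ± 2.58 FPKM in monoculture. Ttr, the thyroxine carrier, was called between KO and WT co-culture (1.04 ± 0.06) and in the difference of inhibitor effects (-0.64 ± 0.08), the sign opposite to that of Hnf4a in both contrasts. Of 7 NR5A2 targets Scarb1 alone remained, and it rose with the inhibitor by 0.17 in KO co-culture and by 0.22 in WT co-culture. With so few genes left these counts are a description only.

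**Figure D4:**
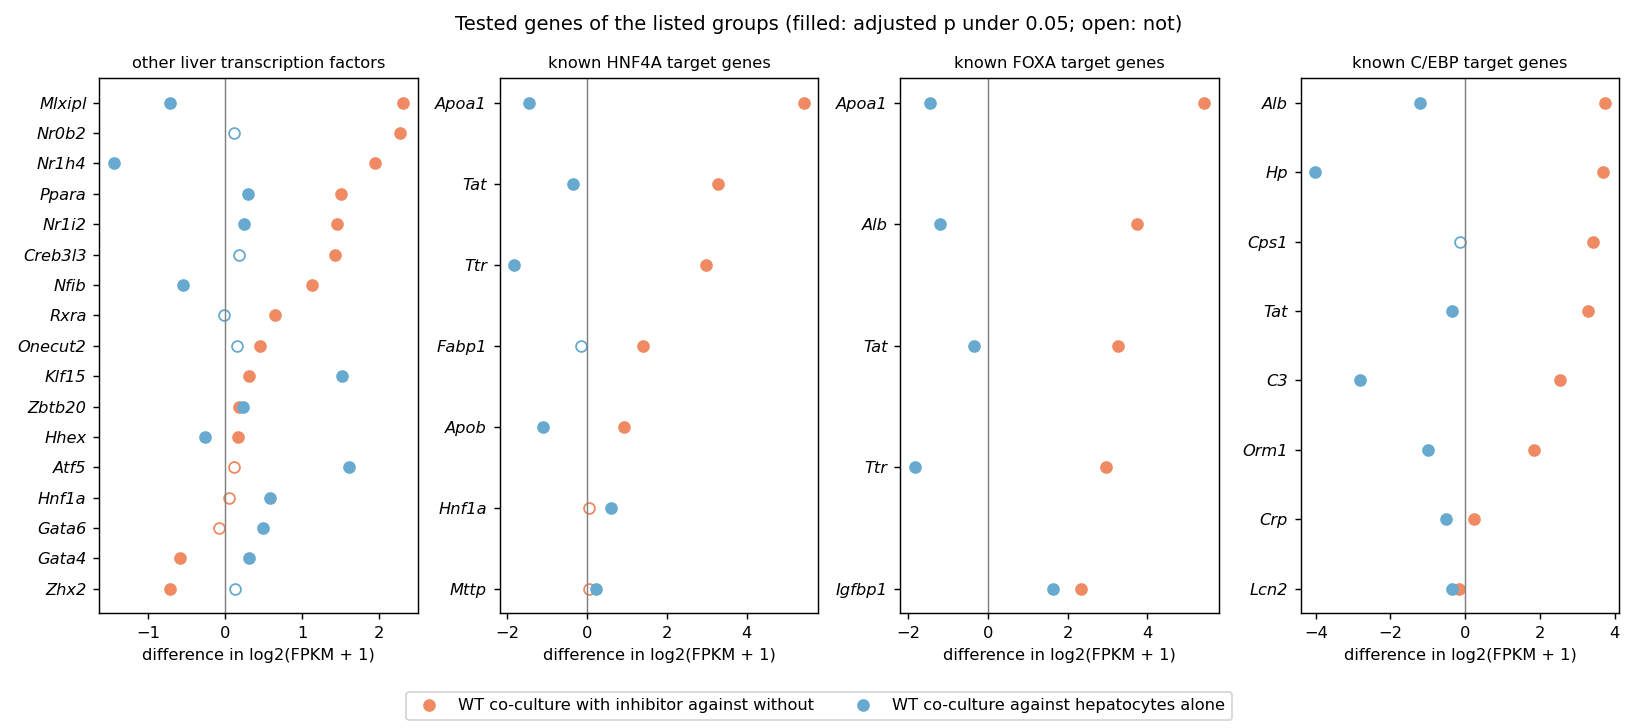
Differences in log2(FPKM + 1) for tested genes (rows) of the other liver transcription factors and of the HNF4A, FOXA and C/EBP targets, for WT co-culture with the inhibitor against WT co-culture (orange) and WT co-culture against monoculture (blue); filled points passed an adjusted p of 0.05, and each panel has its own axis. All 5 FOXA targets lie right of 0 for the inhibitor, and 4 of them lie left of 0 for co-culture. Tat (in the HNF4A, FOXA and C/EBP panels), Fabp1, Orm1, Cps1, Nr0b2 and Creb3l3 averaged under 1 FPKM over the libraries without the inhibitor. They passed the floor through the inhibitor groups, so that their rise was favoured by the filter.

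The genes whose course over the 16 libraries was most like that of each factor were sought among 10226 tested protein-coding genes by Pearson's r of log2(FPKM + 1). These values describe a likeness over libraries that share 5 groups, and carry no test. Hnf4a was closest to Mtcl1 (r = 0.995), Mgst2 (0.985) and Cdc42ep5 (0.982), and Cebpa to Azgp1 (0.995), Cbs (0.992) and Sema4g (0.991). Foxa1 was closest to St3gal1 (0.984), Thrb (0.980) and Tuft1 (0.979). Onecut1 was closest to Ctsh (0.976), Pcyt2 (0.974) and Pkdcc (0.971), and genes close to Nr5a2 included Slc16a12 (0.976) and Hadha (0.969). The nearest genes were less close for Cebpb (Ier5, 0.932), Prox1 (Retreg1, 0.892), Foxa3 (Gpx3, 0.850) and Foxa2 (Gdf15, 0.702). Among the 9 themselves the highest values were 0.912 for Hnf4a with Cebpa, 0.879 for Onecut1 with Nr5a2 and 0.871 for Foxa1 with Onecut1, while Foxa2 ran from -0.009 to 0.353 with the others.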

How the data were processed

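RNA was extracted with RNeasy kits and sequenced by Novogene, per the labels' protocols, and HISAT2, GRCm38 and mm10 are named in the submitters' processing notes. For the counting tool, annotation release and strand setting, nothing is given in the sources used here. The authors deposited FPKM per gene. FPKM multiplied by gene length gave whole fragments, within 0.1, for 100% of values, and depth comes from these recovered fragments. Genes averaging at least 1 FPKM over all libraries were tested in R 4.3.3 with limma 3.58.1 (trend) on log2(FPKM + 1), with 1 mean for each of 5 groups, two-sided tests, Benjamini-Hochberg adjustment and a threshold of 0.05. A log2 fold change on this scale understates changes of low genes. Alternatives were quantile normalization, rescaling without mitochondrial and the 50 top genes, a pseudocount of 0.1, no filter, voom on recovered fragments, fitting only the groups compared, a replicate block and leaving out each library. The fit was tested on simulated data. All 9 members are named. From each list at most 5 genes with the largest called change are named, beside Alb, and for each member its 3 most similar genes. Some items are not reported here. Genes named beyond this were chosen after their values were seen. Counts of list genes averaging at least 1 FPKM without the inhibitor were added after the values were seen. The members and lists were chosen with earlier results of these data known. Promoter sequences are from RefSeq on GRCm38.p6. All 9 coordinates match GENCODE M21.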

Additional observations from a re-analysis of the deposited data

Results flagged for a closer look

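Foxa3 in KO co-culture with the inhibitor had a library far from the other 3, replicate 4 at 7.72 FPKM, with a gap to its nearest neighbour of 0.889 of the group's range, above Dixon's 95% critical value. Prox1 in the same group had its lowest library, replicate 1, at 8.92 FPKM, with a gap of 0.890 of the range. Of 9 groups of 4 libraries looked at, chance alone marks about 1 in 20. The inhibitor effect on Hnf4a differed between KO and WT co-culture by 0.37 on the log2 scale (limma, adjusted p = 0.0103), larger in KO.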

How the results depend on the processing

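Of 81 member results 42 were called, 32 kept the call in every alternative, 10 lost it in at least 1, and no called result turned its direction. The number of members called between KO and WT co-culture was 0, and of genes 17, in a fit of those groups alone, and leaving out 1 library gave 1 to 3 members and 157 to 398 genes. Between KO and WT co-culture with the inhibitor the ranges were 0 to 4 members and 123 to 221 genes. Genes called for the difference of inhibitor effects numbered 55 without the filter, 41 in a fit of the groups compared and 31 to 120 without 1 library. The cause of these moves was not tested. Deviations of same-numbered libraries did not run together as a whole (r over 30 same-numbered pairs -0.300 to 0.270, median 0.0104). Among co-culture libraries numbered 2 every r was positive (0.0906 to 0.270), while those numbered 1 and 3 gave both signs. The labels state no batch, and whether a replicate number marks one was not tested. With the replicate block 34 genes were called for the difference, 263 genes and 3 members between KO and WT co-culture, and 193 genes and 3 members between these with the inhibitor. The block ended the calls of Cebpb in KO co-culture against monoculture (adjusted p = 0.0553) and Prox1 in KO against WT with the inhibitor (0.27, adjusted p = 0.0792), and against monoculture it added Foxa3 in KO with the inhibitor (0.42, adjusted p = 0.00844) and Onecut1 in WT with the inhibitor (adjusted p = 0.0429). Directions turned only for uncalled differences. Under quantile normalization these were Prox1 at 0.0115 (WT co-culture against monoculture), -0.0204 (inhibitor in WT) and -0.0089 (WT with inhibitor against monoculture), and Cebpb at 0.003 (inhibitor in WT) and 0.0016 (KO with inhibitor against monoculture). After rescaling they were Prox1 at 0.0357 (WT co-culture against monoculture) and Cebpb at 0.0237 (inhibitor in WT). Nr5a2 in the difference of inhibitor effects was -0.0473 with a pseudocount of 0.1 and -0.0547 with voom. Without 1 library, differences against monoculture ran for WT co-culture from -0.018 to 0.1019 in Foxa2 and -0.0768 to 0.0255 in Prox1, and for WT with the inhibitor from -0.0004 to 0.0189 in Foxa2 and -0.0261 to 0.066 in Prox1. KO against WT co-culture ran from -0.2075 to 0.029 in Foxa1, -0.0722 to 0.0618 in Foxa3 and -0.0977 to 0.1916 in Cebpb. The inhibitor in WT co-culture ran from -0.0952 to 0.0247 in Foxa2 and -0.1561 to 0.1332 in Cebpb, and the difference of effects from -0.0217 to 0.1667 in Onecut1 and -0.0602 to 0.0743 in Nr5a2. Depth limits Foxa1 most, at 30 to 255 fragments.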
